A study of Rattus norvegicus with 2 samples.

Results

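The colony-stimulating factors and their receptors were followed in cardiac cells of neonatal rats, with and without lipopolysaccharide (LPS). The family was represented by 6 of the 25399 gene identifiers of the gene list: the ligands *Csf1* (ENSRNOG00000018659), *Csf2* (ENSRNOG00000026805) and *Csf3*, and the receptor genes *Csf1r*, *Csf2ra* and *Csf3r*. They were listed by symbol after their levels in these 2 libraries were known, so their values are given as a description and no test was made of them. Hearts of Sprague-Dawley rats aged 1 to 3 days, both sexes pooled, were digested with trypsin, and the cells were enriched on a Percoll gradient for intrinsic cardiac adrenergic (ICA) cells, the resident cells that make catecholamines. Cells received saline (control) or LPS at 1 µg/mL for 2 h, and each condition gave 1 single-cell library of the 10X Genomics 3′ kind, so that condition, pool and library cannot be told apart. The comparison addresses what LPS, the endotoxin of Gram-negative bacteria, changes in the cells that surround and include ICA cells.

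Macrophage colony-stimulating factor (*Csf1*) keeps macrophages alive and acts through the receptor tyrosine kinase *Csf1r*. Granulocyte-macrophage colony-stimulating factor (*Csf2*) acts on myeloid cells through a private chain, *Csf2ra*, and a shared chain, *Csf2rb*, and granulocyte colony-stimulating factor (*Csf3*) drives neutrophil production through *Csf3r*. Stromal cells, endothelial cells and macrophages are known sources of the ligands in inflamed tissue, whereas the receptors belong mainly to myeloid cells.

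The control library held 11531 cells with a median of 12479 unique molecular identifiers (UMIs) per cell, and the LPS library 12689 cells with a median of 9432. The 2 libraries shared 194 cell barcodes. Classes of cells are the 11 clusters, numbered 0 to 10, of the authors' cell table. Although both libraries carry the label of ICA cells, 69.4% of control cells and 67.9% of LPS cells lay in clusters 0, 1 and 7, which the authors named fibroblasts. Cluster 6, their macrophages, held 281 control and 291 LPS cells, and 12 macrophage markers summed there to 207 times their level in the other cells. Clusters 4 and 5 were named endothelial, and cluster 3 ICA and cardiomyocyte. Clusters 2, 8, 9 and 10 carry no name, and mural cell markers led cluster 2 at 4.50 times, and mesothelial markers cluster 8 at 28.9 times, the level elsewhere. A level is the UMIs of a gene summed over a cluster, per 1000000 UMIs of that cluster (CPM), and it compares 1 gene between cells, not 1 gene with another. Intervals are at 95% and cover counting error only.

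Of the 6 genes, 4 have an entry in the RefSeq promoter table of build GRCr8, namely *Csf2*, *Csf1r*, *Csf2ra* and *Csf3r*. The bases upstream of *Csf2* are shown because *Csf2* rose from 1 UMI to 75 between the libraries and because its window holds letters of the CK-1 element, a cytokine motif known from the promoters of *Csf2* and *Csf3*. The sequence covers chr10:38889724-38889923 on the minus strand, is written 5′ to 3′ towards the start, and has the match to the CK-1 letters GAGATTCC in capitals.

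Csf2: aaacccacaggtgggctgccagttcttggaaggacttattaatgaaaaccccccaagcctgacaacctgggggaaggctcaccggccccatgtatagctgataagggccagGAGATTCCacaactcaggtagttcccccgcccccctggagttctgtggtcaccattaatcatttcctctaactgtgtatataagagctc

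Positions count from the gene start of the table as 0, which for *Csf2* and *Csf1r* is the atg of the start codon, so that they are not distances from the transcription start there. The match lay at -139 to -132, and it overlapped a match to the C/EBP letters TTNNGNAA on the opposite strand at -135 to -128. Searched on both strands of windows of 300 bases, the CK-1 letters were found in 0.86% of 33469 promoters and the C/EBP letters in 41.3%. The windows of *Csf1r*, *Csf2ra* and *Csf3r* held no CK-1 match. Each of the 4 windows held a C/EBP match and at least 1 match to the PU.1 letters GAGGAA, which 27.6% of promoters hold. The AP-1 letters TGANTCA (7.33% of promoters) matched none of the 4. The NF-kB letters GGGRNNYYCC (7.51%), with R for A or G and Y for C or T, matched *Csf2ra* alone, at -62 to -53. That match overlapped the C/EBP match of its window at -58 to -51. These are exact matches of letters in 1 window per gene. A window without a match can still hold a site with other letters, so no window is taken to lack one. The letters were settled after a first search with other letters, so the rates do not measure how unusual a match is.

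*Csf3* was nearly absent from the control library and abundant in the LPS library, where macrophages held the largest share and had the highest level. Over all clusters it went from 52 UMIs to 10923 UMIs, from 0.341 to 85.6 CPM, a ratio of 251 (192 to 337). The macrophages of cluster 6 held 1 UMI in control and 5516 UMIs in LPS, or 0.321 CPM (0.00813 to 1.79) and 2219 CPM (2161 to 2278). They made up 2.29% of the LPS cells and 1.95% of the LPS UMIs and carried 50.5% of the library's *Csf3*. Of the 8401 genes with at least 20 UMIs in cluster 6, *Csf3* had the highest log2 ratio. It passed this minimum through LPS and was chosen with its levels known, so the rank is a description.

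Among the other clusters, *Csf3* was highest in endothelial cluster 5, with 3.06 CPM (1.63 to 5.23) in control and 273.8 CPM (259 to 289) in LPS. This was 89.5 times (52.1 to 169) the control level, and cluster 5 held 13 of the 52 *Csf3* UMIs of control and 11.4% of those of LPS. The other endothelial cluster, 4, went from 6 UMIs to 495 UMIs and reached 50.8 CPM (46.5 to 55.5), so that the endothelial clusters differed in LPS level, while the ratio in cluster 4, 94.3 (43.0 to 258), overlapped that of cluster 5. The fibroblasts of cluster 0 went from 0.287 CPM (0.188 to 0.421) to 35.1 CPM (33.8 to 36.5), a ratio of 122 (83.3 to 188), and by their number held 23.7% of the LPS library's *Csf3* UMIs. Fibroblast cluster 1 reached 33.4 CPM, cluster 7 reached 28.9 CPM, cluster 2 reached 22.3 CPM and cluster 3 reached 19.5 CPM. In the unnamed clusters 8 and 9 it was 46.7 and 46.5 CPM. The LPS order thus ran from cluster 6 to 5, then 4, 8 and 9, whose intervals overlap, then 0, 1 and 7, which also overlap, and last 2 and 3, which overlap as well. The wide intervals of clusters 7, 8 and 9 reach into the next of these sets, and cluster 10 held 0 and 2 UMIs. Where control held 0 UMIs of *Csf3*, the level in LPS was at least 14.1-fold higher in cluster 7 and at least 6.97-fold higher in cluster 9, taking 3 UMIs as the control limit.

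**Figure D1:**
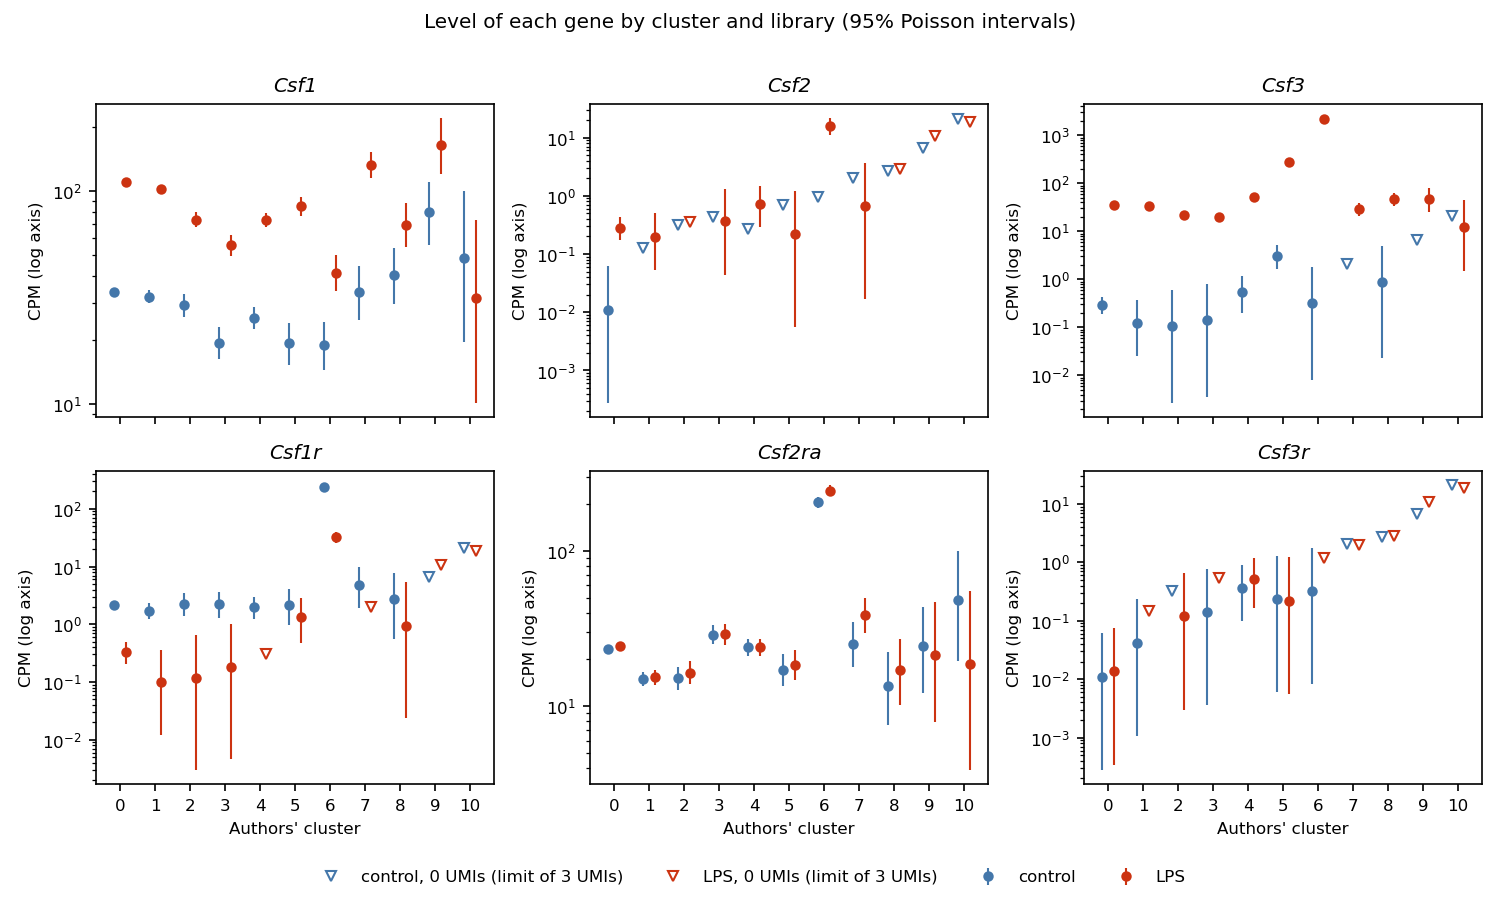
Level of each gene (CPM, log axis) in the 11 clusters of the control (blue) and LPS (red) library, with 95% Poisson intervals as bars and the limit of 3 UMIs as an open triangle where a cluster held 0 UMIs. *Csf3* was higher in LPS in clusters 0 to 9, *Csf2* stood out in LPS cluster 6, *Csf1r* was lower in LPS in cluster 6, and *Csf2ra* was highest in cluster 6 in both libraries.

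Free RNA in the droplets can put *Csf3* UMIs of macrophages into other cells, so its level outside cluster 6 was set beside that of macrophage markers. In the LPS library, *Csf3* stood at 12.3% (11.6 to 13.1) of its cluster 6 level in cluster 5, at 2.29% (2.09 to 2.51) in cluster 4 and at 1.58% (1.51 to 1.66) in cluster 0. The 12 macrophage markers together stood at 0.788%, 0.508% and 0.381% of their cluster 6 level in the same clusters. None of the 12 was at 0 in cluster 0, and single markers with at least 50 UMIs in cluster 6 ranged from 0.204% to 0.830% there. In cluster 5, 2 markers were at 0 and the highest single one reached 16.5%. The relative level of *Csf3* was above that of the summed markers in each of these clusters, but in cluster 5 below that of the highest single marker. In cluster 4 the highest single marker reached 1.32%, and in clusters 4 and 0 *Csf3* was above it. In control the highest single marker of cluster 5 stood at 30.4%. Whether cells of cluster 5 express such a marker themselves was not tested. The part of free macrophage RNA in the *Csf3* of other clusters was not tested. In the cells without a UMI of any of the 12 markers, a restriction chosen after the levels were seen, *Csf3* was 294 CPM (274 to 315) in 302 LPS cells of cluster 5 and 34.7 CPM (33.2 to 36.3) in 5577 LPS cells of cluster 0. These levels are about those of the whole clusters. In the same LPS cells of cluster 0, *Csf1r* was also close to its whole-cluster level, at 0.350 CPM against 0.325 CPM. Leaving out cells with a marker UMI does not remove free RNA from the cells kept, so the restriction cannot decide its part.

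**Figure D2:**
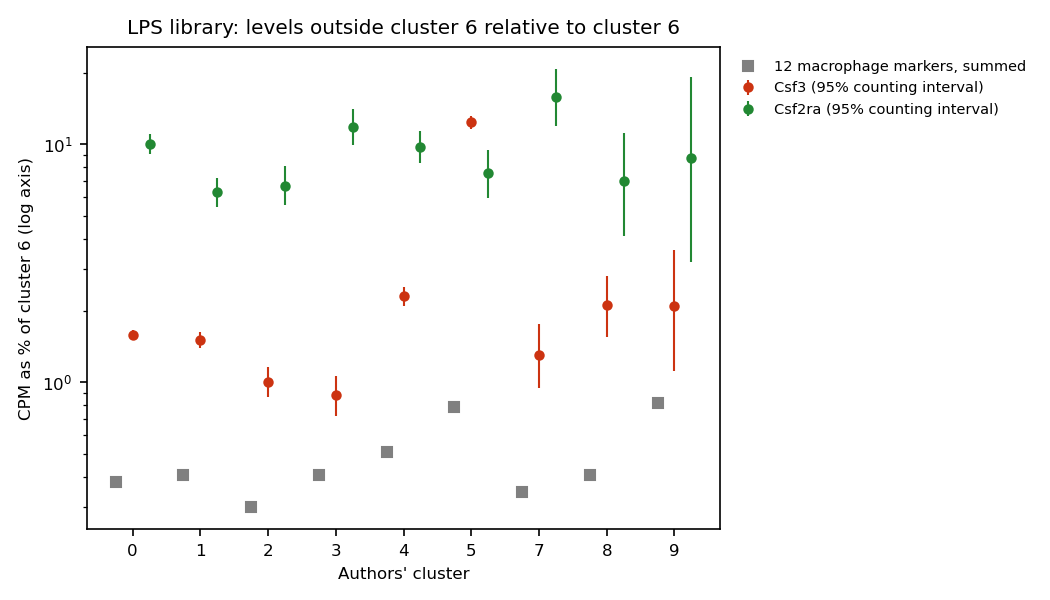
Level in the LPS library outside cluster 6 as a percentage of the cluster 6 level (log axis), for *Csf3*, *Csf2ra* and the sum of 12 macrophage markers, by cluster, with 95% counting intervals for the genes. *Csf3* reached 12.3% in cluster 5, where the marker sum was 0.788%, and *Csf2ra* lay between 6.28% and 15.8%.

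Within cluster 6 the *Csf3* UMIs were unevenly spread. The median LPS macrophage held 10 UMIs, with quartiles of 2 and 27.5, and the highest cell held 199 UMIs. No *Csf3* was seen in 53 cells, whereas 28 cells held 50 UMIs or more. The 30 cells with the most *Csf3* carried 40.5% of it, while the 30 deepest cells carried 23.9% of all UMIs. After each cell was thinned to 3000 UMIs, 75.9% (70.5 to 80.7) of the LPS macrophages had a *Csf3* UMI, against 42.4% (37.7 to 47.2) of cluster 5, 10.8% (8.73 to 13.2) of cluster 4, 8.60% (7.95 to 9.28) of cluster 0 and 4.64% (3.38 to 6.20) of cluster 3. Without thinning, clusters 6, 5 and 3 gave 81.8%, 64.1% and 9.15%, their median cells holding 6900, 8998 and 5269 UMIs. Cluster 3, which holds the cardiomyocytes, had the lowest thinned share of these. Its *Csf3* level was 0.880% (0.720 to 1.07) of that in cluster 6, and the macrophage markers together stood at 0.407% of theirs. Single markers with at least 50 UMIs in cluster 6 ranged from 0% to 2.17% in cluster 3, a range that holds the *Csf3* value. No cluster was taken to lack *Csf3*. In cluster 0, 1166 LPS cells held 1 *Csf3* UMI and 205 cells held 3 or more, with up to 29 UMIs, while 5454 held none. No doublet caller was used, and the part of macrophage RNA in the *Csf3* of these cells was not tested.

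*Csf2* was scarce, and most of it lay in LPS macrophages. The control library held 1 UMI, in cluster 0. The LPS library held 75 UMIs, of which 39 (52.0%) lay in cluster 6, 21 in cluster 0, 7 in cluster 4 and 4 in cluster 1, with 4 more over clusters 3, 5 and 7. In cluster 6 the level was 15.7 CPM (11.2 to 21.4) in LPS, at least 16.3-fold higher when the 0 UMIs of control are read as a limit of 3 UMIs, and *Csf2* had the eighth highest log2 ratio there. Cluster 0 reached 0.285 CPM (0.176 to 0.435), 25.8 times its single control UMI with a wide interval of 4.14 to 1066. In cells, 34 of 291 LPS macrophages (11.7%) had a *Csf2* UMI, and 0 of 281 control macrophages, which by the limit of 3 counts allows up to 1.07% of cells with a UMI. Thinned, the LPS share was 4.14% (2.16 to 7.12), against 0.0712% (0.0231 to 0.166) in cluster 0 and 0 of 1394 cells in cluster 2. Of the 34 macrophages with *Csf2*, 32 also had *Csf3*. *Csf2* was seen in 13.4% of the macrophages with *Csf3* and in 3.77% of those without, the latter resting on 2 cells. The median depths with and without *Csf3* were 7086 and 5786 UMIs. Thinned, 10 LPS macrophages had both genes and 210 had *Csf3* without *Csf2*. Of the thinned ones without *Csf3*, 2 had *Csf2* and 68 did not. At so few cells with *Csf2* no difference was read, and the part of depth was not tested.

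*Csf1* was measured in every cluster of both libraries and was higher in LPS in clusters 0 to 9. Over all clusters it rose from 31.3 CPM (30.4 to 32.2) to 99.1 CPM (97.4 to 101), a ratio of 3.16 (3.06 to 3.27). In the fibroblasts of cluster 0 it went from 33.6 CPM (32.4 to 34.8) to 110 CPM (108 to 113), or 3.29 times (3.15 to 3.43). The 3 fibroblast clusters together held 80.7% of the *Csf1* UMIs in control and 82.2% in LPS, somewhat more than their 76.0% and 74.8% of all UMIs. The clusters thus shared one direction at unlike levels. The ratio was 3.19 (2.93 to 3.47) in cluster 1, 3.94 (2.87 to 5.50) in cluster 7, 2.52 (2.18 to 2.92) in cluster 2 and 2.86 (2.33 to 3.53) in cluster 3. It was 2.88 (2.50 to 3.31) in endothelial cluster 4 and 4.41 (3.46 to 5.66) in endothelial cluster 5, intervals that do not overlap. Clusters 8 and 9 gave 1.72 (1.17 to 2.55) and 2.06 (1.30 to 3.27), and cluster 10, with 7 and 5 UMIs, allowed no direction at 0.644 (0.161 to 2.36).

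Macrophages had the lowest *Csf1* level among clusters 0 to 9 in both libraries, although their interval overlapped those of clusters 3, 4 and 5 in control and of cluster 3 in LPS. Cluster 6 held 59 UMIs in control and 103 UMIs in LPS, 18.9 CPM (14.4 to 24.4) and 41.4 CPM (33.8 to 50.3), a ratio of 2.19 (1.57 to 3.07). These levels were 56.4% (42.8 to 72.9) and 37.5% (30.6 to 45.6) of those in cluster 0. The 9 fibroblast markers together stood at 33.3% and 27.8% of their cluster 0 level in the same macrophages, with single markers from 28.0% to 42.6% and from 22.7% to 35.8%, and none of the 9 at 0. The part of fibroblast RNA in the *Csf1* of cluster 6 was not tested. In control the highest level among clusters 0 to 9 was that of the unnamed cluster 9, with 80.0 CPM (56.0 to 111). In LPS clusters 9 and 7, with 164 CPM (120 to 219) and 132 CPM (115 to 152), came first with overlapping intervals. The fibroblast markers of cluster 9 together stood at 147% in control and 134% in LPS of their cluster 0 level. Its cardiomyocyte markers stood at 16.7% and 16.2% of their cluster 3 level. In thinned cells of cluster 0, a *Csf1* UMI was found in 9.36% (8.67 to 10.1) with saline and 26.7% (25.6 to 27.7) with LPS, against 4.27% (2.23 to 7.34) and 9.31% (6.23 to 13.3) in cluster 6. Unthinned, these were 34.0% and 61.4% of cluster 0, and 15.7% and 22.7% of cluster 6. No cluster was taken to lack *Csf1*. The macrophages had median depths of 8846 and 6900 UMIs against 12968 and 9822 in cluster 0.

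**Figure D3:**
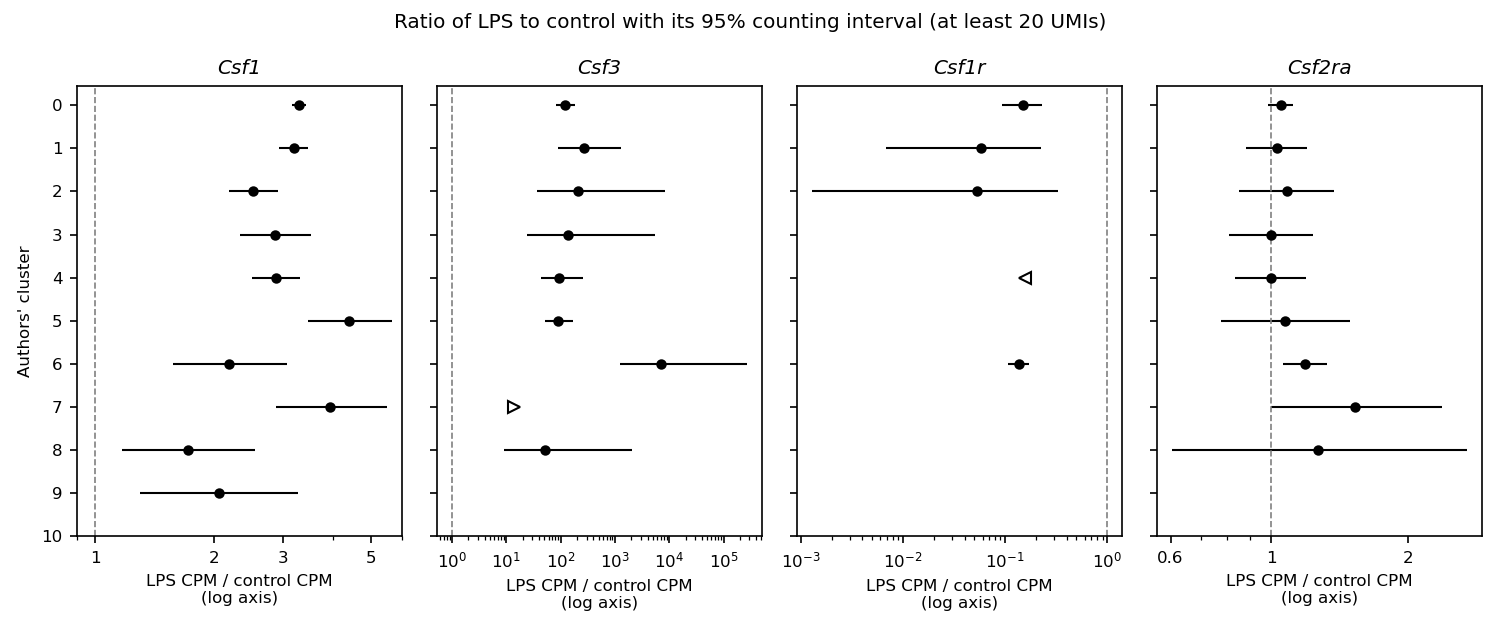
Ratio of the LPS to the control level (log axes, a different range for each gene) by cluster, for clusters with at least 20 UMIs over both libraries, with 95% counting intervals as bars and open triangles for bounds where a library held 0 UMIs, read as 3 UMIs. The dashed line marks equal levels. The *Csf1* and *Csf3* ratios lay above it, the *Csf1r* ratios below it, and those of *Csf2ra* near it.

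*Csf1r*, the receptor for the *Csf1* product, was a gene of cluster 6 and was lower there in LPS. The macrophages held 737 UMIs in control and 80 UMIs in LPS, at 236.6 CPM (220 to 254) and 32.2 CPM (25.5 to 40.1), which is 7.35-fold lower (5.83 to 9.38). Of the library's *Csf1r* UMIs, cluster 6 held 69.9% in control and 69.6% in LPS. A *Csf1r* UMI was found in 52.0% (45.9 to 57.9) of the thinned control macrophages and 10.7% (7.38 to 14.8) of the thinned LPS macrophages. These intervals cover counting error over the cells of 1 library each, and such cells are not replicates of a condition. Unthinned, 86.8% and 21.0% of the macrophages had a *Csf1r* UMI. In the fibroblasts of cluster 0, as a class that should lack *Csf1r*, a UMI was found in 0.667% (0.485 to 0.894) and 0.0997% (0.0401 to 0.205) of the thinned cells and in 2.91% and 0.341% of the whole cells, at the depths given above.

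Outside cluster 6 *Csf1r* was at 2.12 CPM in control and 0.280 CPM in LPS, also 7.58-fold lower (5.33 to 11.1). In cluster 0 it stood at 0.925% (0.786 to 1.08) of its cluster 6 level in control and at 1.01% (0.613 to 1.61) in LPS, where the summed macrophage markers stood at 0.508% and 0.381%. Cluster 1 went from 41 UMIs to 2 UMIs and cluster 2 from 21 UMIs to 1 UMI. Cluster 4 went from 22 UMIs to 0, at least 6.42-fold lower. The fall was thus seen in each cluster with at least 20 UMIs. The part of free macrophage RNA in the *Csf1r* of the clusters other than 6 was not tested, so their falls are not read as changes of their own cells.

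The macrophage markers did not fall with *Csf1r* to the same extent. Of 12 markers, 11 had at least 20 UMIs in cluster 6 and 0 of these passed 2-fold in either direction, while 8 had a log2 ratio below 0. *Cd68*, a lysosomal protein of macrophages, had a ratio of 1.07 (0.994 to 1.15), and *Tyrobp*, a signaling adaptor, 0.598 (0.578 to 0.618). *Adgre1*, which codes F4/80, stood at 117 and 176 CPM. *Cd163*, a scavenger receptor, had 6 UMIs in control and 0 in LPS. In cluster 6 the median log2 ratio of all genes was -0.34, against -2.87 for *Csf1r*. The median was also below 0 by 0.1 or more in clusters 0, 2 and 4, at -0.15, -0.14 and -0.10. In a summed cluster, fewer expressing cells and less RNA per cell cannot be told apart from the level alone.

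*Csf2ra*, the private chain of the receptor for the *Csf2* product, was highest in macrophages and differed little between the libraries. Cluster 6 held 643 UMIs in control and 609 UMIs in LPS, at 206 CPM (191 to 223) and 245 CPM (226 to 265), a ratio of 1.19 (1.06 to 1.33). The log2 ratio was 0.25, where the median gene had -0.34. Leaving the 50 genes with the largest rise out of the total gave 0.47, and thinning every cell to 3000 UMIs gave 0.037. After thinning, 51.6% (45.6 to 57.6) and 60.0% (54.1 to 65.7) of the macrophages had a UMI, with overlapping intervals, and unthinned 88.6% and 82.5%.

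Unlike *Csf1r*, *Csf2ra* had most of its UMIs outside the macrophages, which held 16.6% of them in control and 17.8% in LPS, while cluster 0 held 54.6% and 52.8%. In cluster 0 the level was 23.4 CPM (22.4 to 24.4) and 24.5 CPM (23.4 to 25.7), a ratio of 1.05 (0.985 to 1.12). It was 11.3% and 10.0% of the macrophage level, where macrophage markers stood at 0.508% and 0.381%. In cells of cluster 0 without a UMI of those markers it was 23.9 CPM (22.6 to 25.3) and 23.6 CPM (22.4 to 24.9). The part of free macrophage RNA in the *Csf2ra* of cluster 0 was not tested. The ratios of clusters 3 and 4 were 1.00 (0.809 to 1.24) and 0.997 (0.833 to 1.19), and cluster 7 gave the highest, 1.53 (0.998 to 2.38). No change of *Csf2ra* was detectable in any of these at this depth. In thinned cluster 0, 6.27% (5.70 to 6.88) and 6.48% (5.91 to 7.08) of the cells had a UMI, and unthinned 25.7% and 21.4%.

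**Figure D4:**
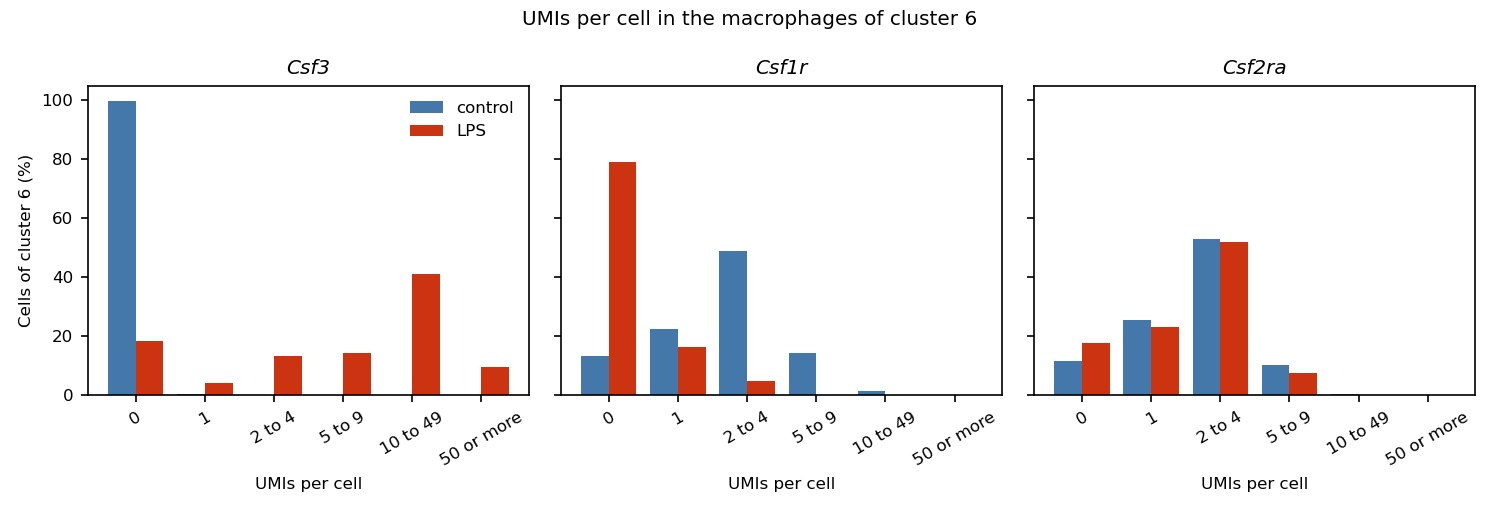
Share of the cells of cluster 6 (%) by UMIs per cell of *Csf3*, *Csf1r* and *Csf2ra*, in control (blue, 281 cells) and LPS (red, 291 cells), without thinning. For *Csf3* 53 of 291 LPS cells held 0 UMIs, for *Csf1r* 37 control and 230 LPS cells held 0, and the 2 libraries had like distributions of *Csf2ra*.

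Among LPS macrophages, 47 had *Csf3* and *Csf1r*, 191 had *Csf3* without *Csf1r*, 14 had *Csf1r* without *Csf3*, and 39 had neither. *Csf3* was thus seen in 77.0% of the cells with *Csf1r* and in 83.0% of those without. The median depths with and without *Csf1r* were 7913 and 6716 UMIs, so these unthinned shares do not compare cells of equal depth. After thinning, 18 cells had both genes and 13 had *Csf1r* without *Csf3*. Of the thinned cells without *Csf1r*, 202 had *Csf3* and 57 did not. Whether the genes are linked within cells was not tested.

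*Csf3r*, the receptor for the *Csf3* product, was barely detected, with 9 UMIs in control and 8 UMIs in LPS. Of these, 4 and 5 lay in endothelial cluster 4, and cluster 6 held 1 and 0. Neutrophils are the main cells known to carry it. Of 8 neutrophil markers, 5 were at 0 in cluster 6 of both libraries, among them *Mpo*, *Elane* and *Cxcr2*. *S100a8* had 35 UMIs in control and 51 UMIs in LPS there, *Camp* 36 and 24, and *S100a9* 1 and 7. All 8 markers summed to 23.1 CPM (18.1 to 29.1) in control and 33.0 CPM (26.2 to 40.9) in LPS. No fold of *Csf3r* was read at these counts.

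**Figure D5:**
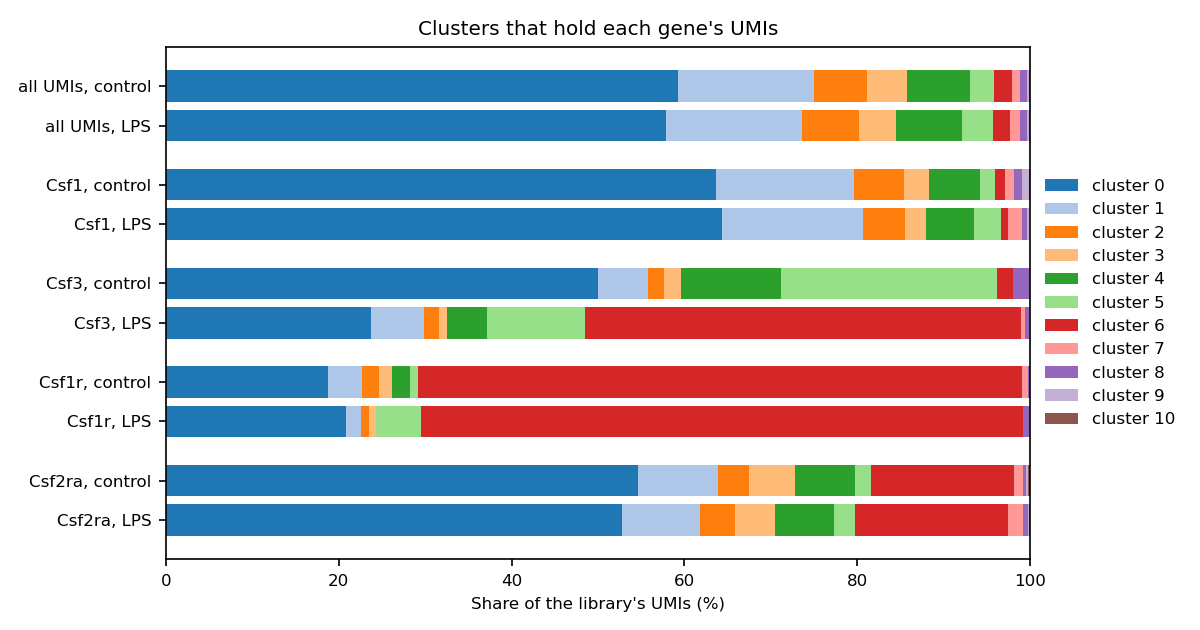
Share of the UMIs of each gene, and of all UMIs, that each cluster held in the control and LPS library (%). Cluster 6 (red) held 50.5% of *Csf3* in LPS and about 70% of *Csf1r* in both libraries, while *Csf1* followed the fibroblast clusters. The control bar of *Csf3* rests on 52 UMIs.

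Counted by fold, 5 of the 6 genes had at least 20 UMIs in cluster 6, where 3 were at least 2-fold higher in LPS (4.7% of all genes so counted) and 1 was at least 2-fold lower (15.7%). In cluster 0 the same numbers of the 6 held, against 3.62% and 11.2% of all genes. Cluster 4 had 2 higher and 1 lower (2.95% and 6.27%), and cluster 5 had 2 higher and 0 lower (4.74% and 6.48%). The genes were chosen on this contrast, and nothing is read from these counts.

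The shared receptor chain *Csf2rb* was lower in LPS over all clusters, at 442 UMIs and 269 UMIs, with a ratio of 0.728 (0.623 to 0.849). The ratio was 0.805 (0.649 to 0.996) in cluster 0 and 0.356 (0.141 to 0.799) in cluster 3. Cluster 6 held 14 UMIs in control and 4 UMIs in LPS, 4.49 and 1.61 CPM, with a ratio of 0.358 (0.0858 to 1.14) whose interval includes 1. Endothelial clusters 4 and 5 had 57 UMIs and 23 UMIs (5.12 and 5.41 CPM) in control and 37 UMIs and 22 UMIs in LPS, with ratios of 0.742 (0.477 to 1.14) and 0.893 (0.475 to 1.68). *Il34*, the other ligand of the *Csf1r* product, was highest in cluster 2, which mural markers led, with 86 UMIs and 80 UMIs, 9.18 and 9.52 CPM, and a ratio of 1.04 (0.755 to 1.42). Cluster 0 held 84 UMIs and 88 UMIs at 0.928 and 1.19 CPM, and cluster 6 held 2 UMIs and 0. *Il3* and *Il5*, whose receptors use the same shared chain, had 0 UMIs in cluster 6 of both libraries.

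Of 46 further genes of these pathways, 44 were found in the gene list and 35 had at least 20 UMIs in cluster 6, where 6 were at least 2-fold higher (4.7% of all genes so counted), 8 at least 2-fold lower (15.7% of all genes) and 21 within 2-fold. Their median log2 ratio was -0.07, against -0.34 for all genes. Among the kinases and STATs, *Jak2*, the kinase bound to the shared chain, was 3.94 times (3.04 to 5.15) the control level. *Stat3*, which relays *Csf3r* signals, had a ratio of 1.23 (0.999 to 1.51), and *Stat5b*, which relays *Csf2* signals, 0.940 (0.481 to 1.81). *Syk*, a kinase of macrophage receptors, was 2.87-fold lower (1.98 to 4.25). *Tyk2*, with 44 UMIs and 17 UMIs, was also counted lower.

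Among feedback genes of cluster 6, *Cish*, a STAT5-induced inhibitor, was 3.54 times (2.17 to 5.97) its control level. The phosphatases *Inpp5d* and *Ptpn6*, which restrain receptor signals in blood cells, were 9.05-fold (4.58 to 20.3) and 2.89-fold (2.35 to 3.57) lower. *Socs3*, the inhibitor of *Csf3r* signaling, had 2 UMIs in cluster 6 of each library, too few to read a fold. It was scarce in cluster 0 as well, at 0.586 CPM in control and 0.339 CPM in LPS. Of the targets of STATs, *Pim1*, a survival kinase, went from 2 UMIs to 18 UMIs, with a ratio of 11.3 (2.70 to 100.2), and *Ccnd1*, a cyclin, was 4.35-fold lower (2.61 to 7.64).

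The myeloid transcription factors moved in both directions in cluster 6. *Cebpb*, a factor of inflammatory macrophages, went from 528 to 1429 CPM, or 2.70 times (2.55 to 2.87), and *Cebpd* was 2.10 times (1.71 to 2.57) its control level. *Cebpa*, a factor of myeloid differentiation, was 8.36-fold lower (5.21 to 14.2) and *Cebpe* 4.59-fold lower (2.14 to 11.3). *Irf8* went from 43 UMIs to 1 UMI, 34.3-fold lower with a wide interval of 5.84 to 1387. *Spi1*, which codes PU.1, an activator of *Csf1r*, stood at 277 and 246 CPM, a ratio of 0.889 (0.800 to 0.987).

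In the other clusters the same list gave 7 higher and 5 lower of 39 genes in cluster 0, where 3.62% and 11.2% of all genes were. It gave 5 and 4 of 35 in cluster 4 (2.95% and 6.27% of all genes) and 10 and 4 of 30 in cluster 5 (4.74% and 6.48%). *Jak2* was higher in each of these, at 10.0 times in cluster 0, 5.78 times in cluster 4 and 14.0 times in cluster 5, and *Cebpb* at 2.41, 2.43 and 2.56 times. *Irf8*, lower in macrophages, was 4.31 times higher in cluster 0 and 4.69 times in cluster 4. *Tyrobp*, a macrophage marker, was counted lower in clusters 0, 4 and 5. In cluster 0 it stood at 14.4 CPM in control and 5.12 CPM in LPS, against 3518 and 2103 CPM in cluster 6. The part of free macrophage RNA in the genes counted lower outside cluster 6 was not tested.

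Genes of like pattern over clusters and libraries were named for family members with at least 200 UMIs, which left out *Csf2* and *Csf3r*. They are the genes with the highest Pearson's r of log2(CPM + 1) over 20 classes with at least 50 cells, among 11303 genes. The classes share libraries and depths, so r is a description. For *Csf3* these were *Nfkbiz*, *Nos2* and *Zc3h12a* (r of 0.95, 0.95 and 0.94), all known as LPS response genes. *Nos2*, the inducible nitric oxide synthase, went from 1.28 to 110 CPM in cluster 6, and *Nfkbiz*, a nuclear regulator of NF-kB, from 27.6 to 165 CPM.

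For *Csf1* they were *Tnfaip6*, *Vcam1* and *Cyp7b1* (r of 0.92, 0.91 and 0.90). *Vcam1*, an adhesion molecule for leukocytes, reached 102 CPM from 6.91 CPM in cluster 0, and 31.4 CPM from 3.21 CPM in cluster 6. *Tnfaip6*, a secreted protein that binds hyaluronan, went from 25.3 to 351 CPM in cluster 0. For *Csf1r* they were *Ptpn6*, *Tmem37* and *RGD1559482*, each with r of 0.97, and all 3 were lower in LPS macrophages, *Tmem37* from 353 to 46.3 CPM. For *Csf2ra* they were *Tlr7*, *LOC100910669* and *Pf4*, each with r of 0.95. *Tlr7*, a receptor for single-stranded RNA, stood at 39.8 CPM in control and 51.9 CPM in LPS macrophages, and *Pf4*, a chemokine, at 2999 and 3601 CPM.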

How the data were processed

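The 2 libraries, 1 per condition, were analysed as deposited: a matrix of raw UMI counts per gene and cell barcode, without normalization, and a cell table with the authors' clusters. The submitters' processing notes name Cell Ranger 2.2.0 and Seurat 2.3.4, and the genome build is not given in the sources used here. The deposited barcodes were used without a filter or a doublet caller. The 2 control and 8 LPS cells that the table gives no cluster held 1 UMI of these genes and were left out. Library totals were 152624585 and 127580475 UMIs.

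UMIs were summed per cluster and library in Python 3.11.15 with numpy 2.4.6, pandas 2.3.3 and scipy 1.17.1. Levels have exact Poisson, shares of cells Clopper-Pearson and ratios exact conditional intervals. Log2 ratios add 0.5 UMI to each sum, the limit for 0 UMIs was set at 3 UMIs, and genes were counted from 20 UMIs at 2-fold. A fold given as at least divides the observed level by this limit and leaves out the counting error of that level. The lower ends of the exact intervals are smaller. They are 12.6 for *Csf2* in cluster 6, 11.0 and 4.90 for *Csf3* in clusters 7 and 9, and 4.79 for the fall of *Csf1r* in cluster 4. Thinning drew 3000 UMIs per cell, with seed 1, and left out 79 LPS cells. With 1 library per condition there is no replicate check and no test was made. The family, its pathway and marker lists, the rule for like patterns and the alternatives were chosen with earlier results of these data known. Some genes of the pathway lists are not reported here by name. Like genes were sought with 1 CPM added, among genes with at least 200 UMIs. In simulated Poisson counts with 200 genes changed 4-fold, the count called 97.0% of them in cluster 6 (8401 genes) and 99.5% in cluster 0 (13447 genes). Of the unchanged genes it called 1.7% and 0.7%. The simulation holds counting error only, so it cannot show how pools or libraries would differ. Motif letters were settled after a first search with other letters.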

Additional observations from a re-analysis of the deposited data

How the results depend on the processing

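No paired analysis was possible because there is 1 library for each condition. The alternatives were filters on genes and mitochondrial share per cell, leaving out the 8% of cells with the most UMIs or richest in markers of other classes, totals without mitochondrial genes or without the 50 genes with the largest rise, the mean of the cells' own CPM, thinning to 3000 UMIs and, chosen after seeing the data, cells without a macrophage marker. Of 350 recomputed log2 ratios, 336 stayed within the main counting interval, 14 left it and 0 of the called ones changed sign. In cluster 6 the log2 ratio ranged from 11.66 to 12.39 for *Csf3*, from 4.71 to 6.85 for *Csf2*, from 1.05 to 1.34 for *Csf1* and from -3.08 to -2.65 for *Csf1r*. That of *Csf2ra* there was 0.47 without the 50 genes with the largest rise and 0.037 after thinning, and the cause was not tested. Shares of cells depend on depth, and 43 of 44 moved without thinning or at 1500 UMIs. With a minimum of 50 UMIs or 1 UMI, the count of genes at least 2-fold higher in cluster 6 was 307 or 1249 in place of 395, and of those lower 771 or 3550 in place of 1319. In cluster 0 they were 420 or 1224 in place of 487, and 1103 or 3175 in place of 1507. Over all clusters 37 of 44 such counts moved by more than 1.5 times. Depth limits *Csf2*, *Csf3r* and *Csf2rb*, and clusters 8 to 10 with at most 81 cells per library.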
